A study of Homo sapiens with 6 samples.

Results

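The genes described here are 10 genes of the hypusine and polyamine pathways: EIF5A and its relatives EIF5A2 and EIF5AL1, the hypusine enzymes DHPS and DOHH, and the polyamine enzymes ODC1, AMD1, SRM, SMS and SAT1. They were taken by symbol from the 59653 genes of the count table. All 10 were found, and all 10 were among the 19008 genes that were tested, those reaching 5 normalized counts in 3 or more libraries. The set was chosen by function with the fold changes between siPVT1 and siControl, that of EIF5A above all, already known. Fold changes of the 10 genes are therefore given as a description, with standard errors and without p-values.

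The libraries came from SK-OV3, a human ovarian cancer cell line whose genotype is labelled wildtype. All received 50 nM siRNA with a lipid reagent for 48 h, in 3 samples a mixture of siRNAs against the lncRNA PVT1 (siPVT1) and in 3 a non-targeting mixture (siControl). The design holds 1 mixture against PVT1, so lower PVT1 and other effects of that mixture cannot be told apart. The labels do not say whether replicates were separate cultures, and p-values then measure only the spread between these samples. Library totals ranged from 28383171 to 35059576 counts. Values are given below as CPM (counts scaled to a common library total) after TMM normalization, which corrects library totals for differences in RNA composition.

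PVT1, the targeted gene, was measured first. It stood at 105, 134 and 108 CPM in siControl replicates 1, 2 and 3 and at 75, 67.9 and 65.8 CPM in siPVT1. The groups did not overlap, and an exact permutation test, two-sided, gave p = 0.1, which is the lowest value possible with 3 libraries in each group. The log2 fold change was −0.74 ± 0.102 (SE; edgeR adjusted p = 0.000465). Here and below, adjusted p-values are those of the quasi-likelihood test in edgeR, by Benjamini-Hochberg over all tested genes. Of the markers of ovarian epithelial cancer cells, KRT8 (256 to 357 CPM), KRT18 (261 to 363 CPM), PAX8 (83.3 to 187 CPM) and ERBB2 (28.6 to 42.3 CPM) were present in every library, and EPCAM was low (1.32 to 4.18 CPM). Between the groups, log2 fold changes were 2.28 for KRT19 (7.95 to 54.6 CPM), 0.99 for PAX8 and −1.03 for WT1 (4.59 to 12.2 CPM). MUC16 had a log2 fold change of −0.66, small beside its range of 0.569 to 20.4 CPM, so it varied widely within a group. The part of these marker differences in the results below was not tested. Of 7 markers of leukocytes, endothelium and fibroblasts, CD3E was at 0 in every library and PTPRC, COL3A1 and DCN were at 3 counts or fewer. The summed level of the 7 was 5.36 to 6.05 CPM in siControl and 27 to 29.6 CPM in siPVT1, from PECAM1, VWF and COL1A1, and the part of this difference in the results below was not tested.

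EIF5A is a small, abundant translation factor that helps ribosomes through stretches that are hard to translate and in termination. It works only after 1 lysine is turned into hypusine, a residue known from this protein family alone. DHPS (deoxyhypusine synthase) moves part of the polyamine spermidine onto that lysine, and DOHH (deoxyhypusine hydroxylase) completes the residue. Spermidine comes from a short route. ODC1 makes putrescine from ornithine, AMD1 supplies the aminopropyl donor from S-adenosylmethionine, SRM builds spermidine and SMS builds spermine. SAT1 acetylates both products, which starts their breakdown and export. ODC1 and SRM are known targets of MYC in many cells.

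EIF5A fell about 10-fold in siPVT1. It stood at 657, 634 and 663 CPM in siControl replicates 1, 2 and 3 and at 61.1, 64.0 and 68.9 CPM in siPVT1 replicates 1, 2 and 3. The groups lay far apart, with little spread inside either of them. The mean was 651 ± 15.5 CPM (SD, n = 3) in siControl and 64.7 ± 3.95 CPM (SD, n = 3) in siPVT1, and the fitted log2 fold change was −3.33 (standard error 0.065). Ordered from the lowest log2 fold change, EIF5A was number 175 of the 19008 tested genes. EIF5A is a protein-coding gene of chromosome 17 (7306999 to 7312463, plus strand, GRCh38). In bulk RNA, fewer cells with the transcript and less of it per cell cannot be told apart.

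EIF5AL1 is a single-exon copy of EIF5A on chromosome 10 (79512533 to 79516440, plus strand), annotated as protein coding. It had few counts, 206, 227 and 241 in siControl replicates 1, 2 and 3 against 15, 15 and 30 in siPVT1. Its log2 fold change was −3.39 (standard error 0.208), close to that of EIF5A. In each library its count was between 0.824% and 1.30% of that of EIF5A. The sequence around the hypusine site shows how near the copies are. The 27 bases below are codons 46 to 54 of the annotated coding sequence of each gene, read from the GENCODE v44 transcripts, with codon 50, the lysine that becomes hypusine, in capitals.
EIF5A: tcgaagactggcAAGcacggccacgcc
EIF5AL1: tcgaagactggcAAGcacggccacgcc
EIF5A2: tccaaaactggaAAGcatggtcatgcc
The windows lie at chr17:7309771-7309797 (plus strand), chr10:79512785-79512811 (plus strand) and chr3:170907645-170907671 (minus strand), all in coding exons. EIF5AL1 was identical to EIF5A in this window and differed at 5 of 462 bases over the coding sequence, an identity of 98.9%. EIF5A2 differed at 6 of the 27 bases and had a coding identity of 71%. Of all 75-base windows, the read length, in the main EIF5A transcript, 21.8% were also found in EIF5AL1, and none of the windows of EIF5A2 occurred in another gene. Reads of EIF5A and EIF5AL1 could therefore be divided between the genes by estimation, and their separate values are uncertain. Summed with the 4 pseudogene rows of the family, which held 0 to 4 counts in any library, they fell from 659 ± 15 CPM to 65.5 ± 4.13 CPM (SD, n = 3 each), 10.1-fold.

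EIF5A2, the vertebrate paralog that can be made alongside EIF5A and is amplified in some ovarian cancers, had overlapping groups. It stood at 84.2, 84.5 and 83.7 CPM in siControl replicates 1, 2 and 3 and at 87.6, 92.9 and 79.7 CPM in siPVT1 replicates 1, 2 and 3. Its siPVT1 libraries lay on both sides of the siControl libraries, and the log2 fold change was 0.04 (standard error 0.067), with a sign that turned to −0.09 when libraries were scaled by their total count alone. The libraries held 7.81, 7.51 and 7.92 EIF5A counts per EIF5A2 count in siControl and 0.698, 0.688 and 0.864 in siPVT1. EIF5A reads outnumbered those of EIF5A2 in each siControl library and were the fewer in each siPVT1 library. Read counts also depend on transcript length, and per kilobase the order of these genes in siPVT1 changed with the length used (below).

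**Figure D1:**
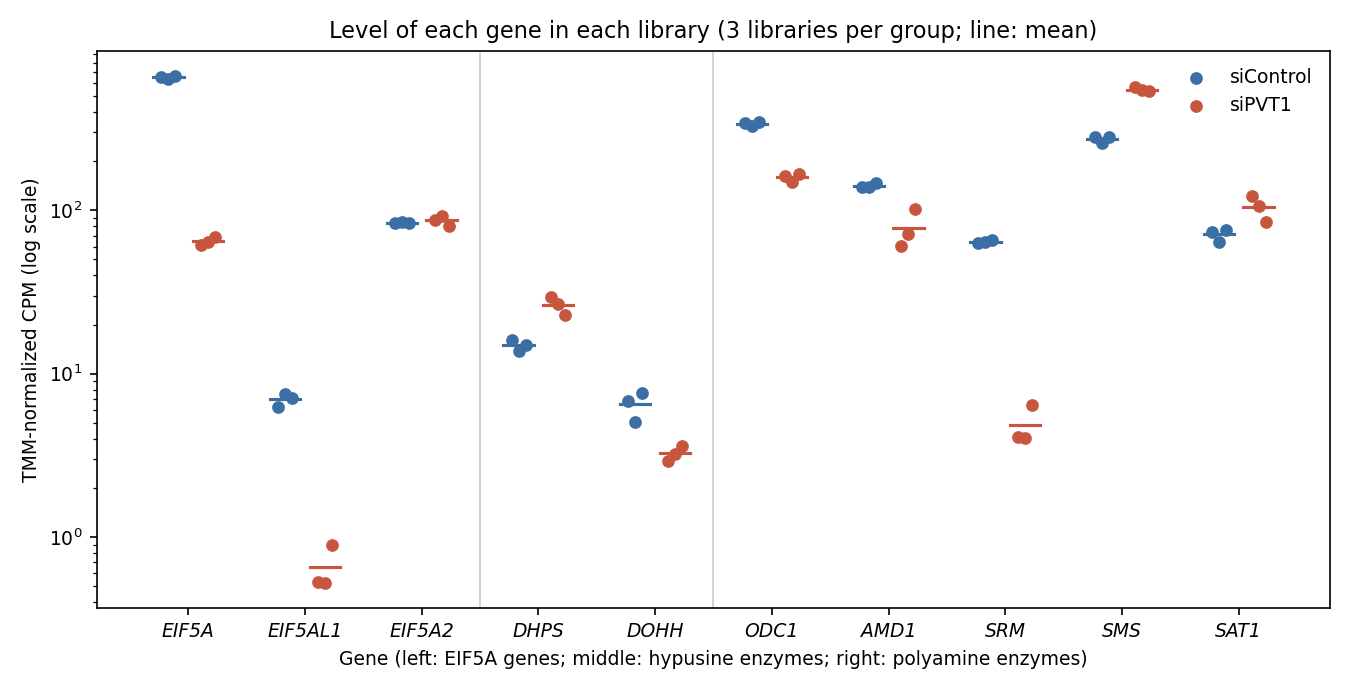
TMM-normalized CPM on a log axis for the 10 genes, with 1 point for each of 3 siControl (blue) and 3 siPVT1 (red) libraries and a line at each group mean. The groups do not overlap for any gene but EIF5A2, and the widest gaps are those of EIF5A, EIF5AL1 and SRM.

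The hypusine enzymes lay on opposite sides of no change. DHPS (chromosome 19, 12675717 to 12681880, minus strand) stood at 16.1, 13.7 and 15 CPM in siControl replicates 1, 2 and 3 and at 29.5, 26.8 and 23.0 CPM in siPVT1. Every siPVT1 library was above every siControl library, with a log2 fold change of 0.82 (standard error 0.110), or 1.77-fold. In the annotation, 79.6% of the 75-base windows of DHPS also occur in 1 overlapping gene, so its count depends on how those reads were assigned. DOHH (chromosome 19, 3490821 to 3500674, minus strand) was the least abundant enzyme of the set, at 6.76, 5.07 and 7.62 CPM in siControl and 2.92, 3.23 and 3.60 CPM in siPVT1. It was lower in every siPVT1 library, 1.99-fold on average (log2 fold change −0.996, standard error 0.171). Relative to DHPS, EIF5A went from 40.8, 46.3 and 44.3 counts per DHPS count in siControl to 2.07, 2.39 and 2.99 in siPVT1.

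Among the polyamine enzymes, the one for spermidine fell most. SRM, spermidine synthase (chromosome 1, 11054584 to 11060020, minus strand), stood at 63.0, 63.6 and 66.3 CPM in siControl replicates 1, 2 and 3 and at 4.09, 4.04 and 6.41 CPM in siPVT1. This was 13.2-fold lower, with a log2 fold change of −3.72 (standard error 0.164), the lowest of the 10 genes. No 75-base window of its main transcript occurs in another annotated gene. SMS, spermine synthase (chromosome X, 21940709 to 21994837, plus strand), which uses the product of SRM, went the other way. It stood at 280, 257 and 281 CPM in siControl and at 568, 543 and 534 CPM in siPVT1, and the log2 fold change was 1.01 (standard error 0.058). Of the 75-base windows of the main SMS transcript, 16.0% also occur in other annotated genes, so its count depends in part on how those reads were assigned. SMS counts per SRM count were 4.44, 4.04 and 4.24 in siControl and 139, 134 and 83.3 in siPVT1.

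The steps that feed spermidine synthesis were lower. ODC1, ornithine decarboxylase (chromosome 2, 10439968 to 10448327, minus strand), fell from 341, 327 and 346 CPM in siControl replicates 1, 2 and 3 to 163, 150 and 166 CPM in siPVT1, and the log2 fold change was −1.08 (standard error 0.059). AMD1, adenosylmethionine decarboxylase (chromosome 6, 110874770 to 110898879, plus strand), stood at 140, 138 and 148 CPM in siControl and at 60.5, 72.1 and 101 CPM in siPVT1, and the log2 fold change was −0.86 (standard error 0.165). The siPVT1 libraries of AMD1 were spread over a wider range than those of ODC1, and without siPVT1 replicate 3 the log2 fold change was −1.09. SAT1, the spermidine and spermine acetyltransferase (chromosome X, 23783173 to 23786210, plus strand), was higher, at 73.7, 64.1 and 76.1 CPM in siControl and 123, 106 and 84.7 CPM in siPVT1 (log2 fold change 0.55, standard error 0.133). ODC1 counts per SAT1 count went from 4.62, 5.10 and 4.54 in siControl to 1.33, 1.41 and 1.96 in siPVT1.

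A gene was called when its edgeR adjusted p-value was below 0.05 and it differed 2-fold or more. Both limits are those of the study, which applied them to DESeq2 results. By that rule 21.4% of all tested genes were called, 11.6% as higher and 9.86% as lower. Of the 10 genes, 4 were called as lower (SRM, EIF5AL1, EIF5A and ODC1) and 1 as higher (SMS). The adjusted p-value alone was passed by 9 of the 10, all but EIF5A2, against 58.4% of all tested genes. The groups did not overlap for 3 genes that were higher and 6 that were lower, where 32.8% and 33.5% of all tested genes did so. The median log2 fold change of the 10 was −0.93 and that of all tested genes was −0.013. Since this contrast was known when the set was chosen, nothing is read from these counts. SMS and DOHH lay next to the 2-fold line on either side of it. Scaling by the total count moved the median of all genes to −0.148, SMS to 0.87 and DOHH to −1.13. With it, 5 of the 10 genes were called as lower and none as higher, beside 2357 and 1834 of the 19008 tested genes.

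**Figure D2:**
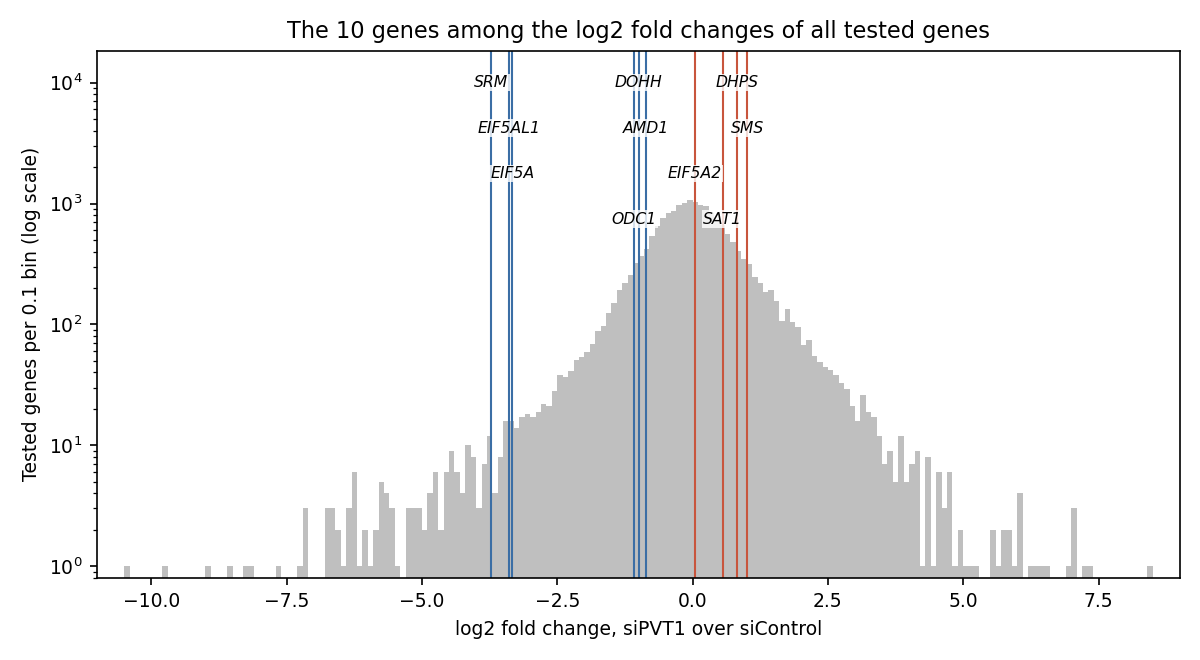
Histogram of the log2 fold changes (siPVT1 over siControl) of the 19008 tested genes in bins of 0.1, with a log axis for the number of genes and a line for each of the 10 genes (blue below 0, red above). SRM, EIF5AL1 and EIF5A lie in the lower tail, between −3.72 and −3.33, ODC1, DOHH and AMD1 near −1, and SMS, DHPS and SAT1 between 0.55 and 1.01.

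In all 9 genes whose groups did not overlap, siPVT1 replicate 3 was the siPVT1 library nearest to siControl. Over all 12597 tested genes without overlap this library was the nearest in 56.9%, against 25.2% for replicate 1 and 17.9% for replicate 2. Its PVT1 level, 65.8 CPM, was the lowest of the 6 libraries. Without siPVT1 replicate 3, 6 of the 10 genes were called as lower, beside 2044 of the 18556 genes tested in that fit. There DOHH was at −1.07, AMD1 at −1.09, EIF5A at −3.37 and SRM at −3.98.

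Levels of different genes were compared per kilobase, with the median length of the annotated transcripts of each gene. In siControl EIF5A was the highest of the 10 at 519 ± 12.3 CPM per kilobase, followed by SMS (247 ± 12.2), ODC1 (154 ± 4.44), EIF5A2 (149 ± 0.654), SRM (111 ± 3), SAT1 (80.3 ± 7.13), AMD1 (43.3 ± 1.58), DHPS (23.9 ± 1.93), DOHH (4.91 ± 0.982) and EIF5AL1 (1.79 ± 0.165) (SD, n = 3 each). ODC1 and EIF5A2 were the only neighbours in that order whose libraries overlapped. In siPVT1 SMS was the highest at 497 ± 16.0, EIF5A was number 5 at 51.5 ± 3.14 and SRM number 8 at 8.39 ± 2.35 CPM per kilobase (SD, n = 3). Some places depend on the length used. With the longest transcript EIF5A was number 4 in siPVT1, and in siControl SAT1 moved from number 6 to 4 and AMD1 from 7 to 6. The place of EIF5A2 moved most. Its median transcript is 565 bases and its longest 5534, and with the longest its level in siControl was 15.2 CPM per kilobase, number 7 of the 10. In siPVT1 EIF5A was below EIF5A2 with the median length (51.5 against 153.5 CPM per kilobase). With the longest transcript EIF5A was above EIF5A2 there (44.9 against 15.7). With the main (canonical) transcript of each gene EIF5A was also above EIF5A2 in siPVT1 (51.2 against 15.7). The main transcript of EIF5A2 is its longest, of 5534 bases.

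**Figure D3:**
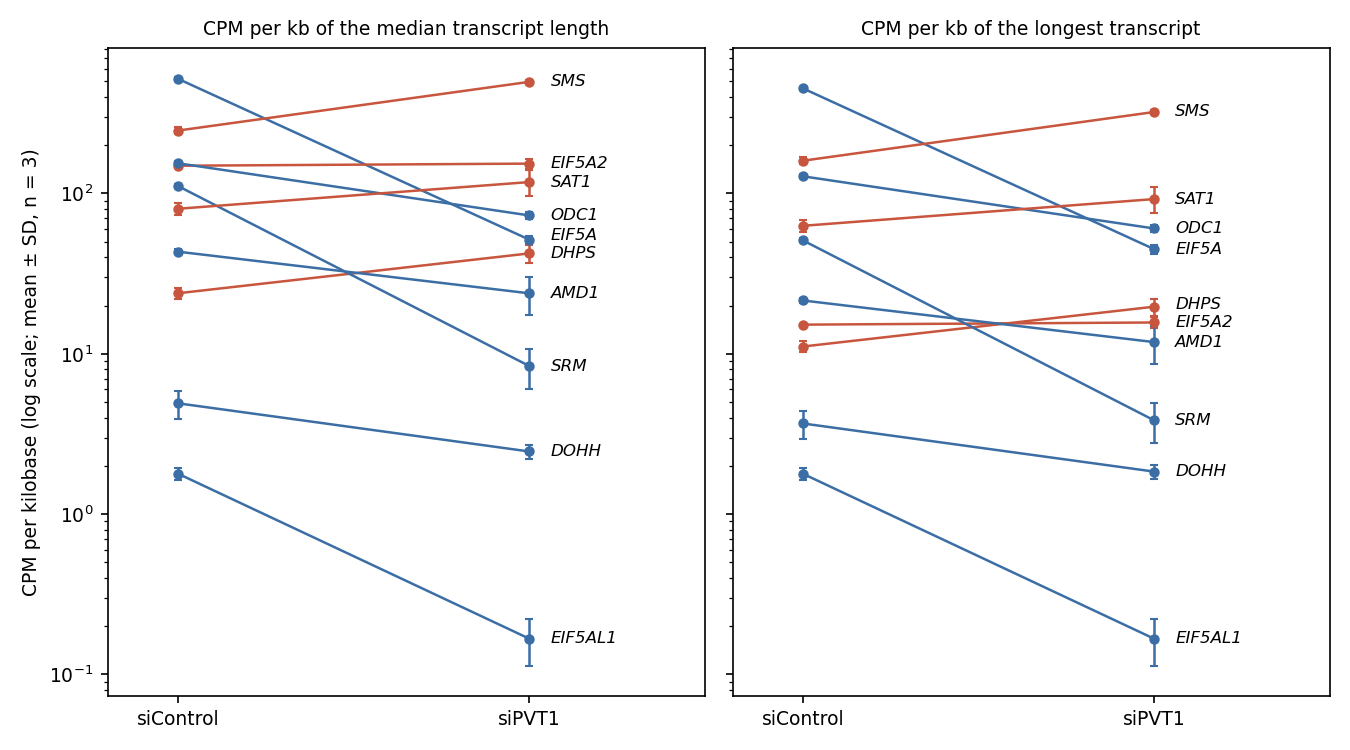
Mean CPM per kilobase with SD (n = 3) on a log axis, joined from siControl to siPVT1 for each of the 10 genes, with the median transcript length on the left and the longest transcript on the right (blue, lower in siPVT1; red, higher). EIF5A leads in siControl and SMS in siPVT1 with either length, while EIF5A2 drops from 149 to 15.2 CPM per kilobase in siControl when the longest transcript is used.

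The promoters of the genes were searched for the E-box CACGTG, a palindrome that MYC with MAX and other factors of that class bind, in the RefSeq windows of 250 bases before to 50 after each start (GRCh38.p14). All 10 genes were in that table. The motif was found for 4 of the 10 genes, SRM, ODC1, DOHH and EIF5A2, and in 7.26% of all promoters of this length. Of the 11862 tested genes with a promoter in the table, 12.1% held it in at least 1 promoter. The matches are shown with 12 bases on each side and the motif in capitals, because the genes that hold it include lower genes and the paralog whose groups overlapped.
SRM: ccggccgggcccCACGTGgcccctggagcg
ODC1, upstream: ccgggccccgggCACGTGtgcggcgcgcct
ODC1, downstream: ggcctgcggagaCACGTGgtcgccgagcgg
DOHH: gtccggcacggtCACGTGggcgagaaaatg
EIF5A2, distal: actaatccgcagCACGTGgggttgccaggg
EIF5A2, proximal: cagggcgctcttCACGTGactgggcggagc
All 6 windows are on the minus strand. That of SRM is chr1:11060200-11060229, those of ODC1 are chr2:10448024-10448053 and chr2:10447990-10448019, that of DOHH is chr19:3500666-3500695, and those of EIF5A2 are chr3:170908807-170908836 and chr3:170908782-170908811. The 6 annotated promoters of EIF5A and the promoters of EIF5AL1, DHPS, SMS, SAT1 and AMD1 did not hold these letters. Of the genes with a match, SRM, ODC1 and DOHH had log2 fold changes of −3.72, −1.08 and −0.996, and EIF5A2 was at 0.04. Of those without, EIF5A, EIF5AL1 and AMD1 were at −3.33, −3.39 and −0.86. SMS, DHPS and SAT1, also without a match, were at 1.01, 0.82 and 0.55. Whether the motif bears on these fold changes was not tested.

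Genes that handle polyamines outside the synthesis route were counted next. The list held 19 genes, of which 17 were tested. As called, 2 were higher and 3 lower, beside the 11.6% and 9.86% of all genes, and by the adjusted p-value alone 8 were higher and 7 lower, beside 29.2% in each direction. PAOX, the oxidase that breaks down acetylated polyamines, rose from 6 to 11 counts per library in siControl to 51 to 73 in siPVT1 (log2 fold change 2.90 ± 0.330 SE; edgeR adjusted p = 0.000162). ARG2, the mitochondrial arginase that makes ornithine, rose from 3.63 ± 0.382 CPM to 14.0 ± 7.60 CPM (SD, n = 3 each; log2 fold change 1.94, edgeR adjusted p = 0.00368), with a wide spread in siPVT1. SLC3A2, the heavy chain of several amino acid transporters that has also been tied to polyamine transport, fell from 403 ± 14.8 CPM to 105 ± 9.88 CPM (log2 fold change −1.94 ± 0.078 SE; edgeR adjusted p = 1.63e-06). AGMAT, an agmatinase named for making putrescine from agmatine, fell by 1.29 on the log2 scale (edgeR adjusted p = 0.000777).

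OAZ3, an antizyme of the germ line, had 8 to 31 counts per library and a log2 fold change of −1.08 (edgeR adjusted p = 0.0368). That call was lost in DESeq2 (adjusted p = 0.0736) and in 4 of the 6 fits that left out 1 library. The broadly made antizymes, which bind ODC1 and send it to the proteasome, were higher without reaching 2-fold, OAZ1 at 0.57 (edgeR adjusted p = 8.06e-05) and OAZ2 at 0.85 (edgeR adjusted p = 2.37e-05). The antizyme inhibitors of the list were at −0.31 (AZIN1, edgeR adjusted p = 0.0111) and 0.74 (AZIN2, edgeR adjusted p = 0.00135). OAZ1, OAZ2, AZIN1 and AZIN2 were named after their values were seen, and antizyme protein was not measured. ATP13A3, a polyamine importer and the most abundant gene of the list, went from 740 ± 1.30 CPM to 1279 ± 138 CPM (SD, n = 3 each; log2 fold change 0.79, edgeR adjusted p = 8.37e-05).

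Of 16 genes listed for the methionine cycle and salvage, routes that supply and recover the substrate of AMD1, 14 were tested. IL4I1, a secreted amino acid oxidase, was the single called gene (log2 fold change 2.80 ± 0.131 SE; edgeR adjusted p = 2.57e-06). The share called over all tested genes was 21.4%. By the adjusted p-value alone, 3 were higher and 6 lower, beside 29.2% of all genes in each direction. MAT2A, which makes S-adenosylmethionine, was the most abundant and had a log2 fold change of −0.65 (edgeR adjusted p = 0.00135), from 415 ± 6.21 CPM to 264 ± 44.9 CPM (SD, n = 3 each).

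EIF5A acts in elongation and termination, and genes tied to these steps were counted as a list of 23 genes, all tested. Besides cytosolic factors the list held 6 diphthamide enzymes, the kinase EEF2K and the mitochondrial factors TSFM, TUFM, GFM1 and GFM2. Its counts are therefore not those of the cytosolic factors alone. Of the 23 genes, 1 was called as higher and 2 as lower, beside 11.6% and 9.86% of all genes. By the adjusted p-value alone 2 were higher and 16 lower, beside 29.2% of all genes in each direction. The median log2 fold change was −0.49. ABCE1, which recycles ribosomes after termination, fell from 266 ± 13 CPM to 107 ± 25.5 CPM (SD, n = 3 each; log2 fold change −1.31, edgeR adjusted p = 0.000175). DPH2, an enzyme of diphthamide, the modified residue of the elongation factor EEF2, fell from 51.1 ± 0.540 CPM to 6.18 ± 2.66 CPM (log2 fold change −3.03 ± 0.246 SE; edgeR adjusted p = 2.95e-05). EEF1A2, the tissue-restricted form of EEF1A, rose from 9 to 11 counts per library to 78 to 105 counts (log2 fold change 3.21, edgeR adjusted p = 2.66e-05). EEF1A1, the most abundant gene of the list, was at 10552 ± 552 CPM in siControl and 11629 ± 1169 CPM in siPVT1 (SD, n = 3 each), and the groups overlapped.

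Among 4 proteins that handle EIF5A itself, KAT2B, an acetyltransferase that acts on it, was at the 2-fold line (log2 fold change 1 ± 0.070 SE; edgeR adjusted p = 1.41e-05), and its call was lost with scaling by the total count and without any of 3 single libraries. XPO4, its nuclear exporter and the most abundant of the 4, was at −0.73 (edgeR adjusted p = 0.000362), lower in 3 of 3 siPVT1 libraries. The deacetylases HDAC6 and SIRT2 were at 0.59 and −0.02. Of the 4, 1 was called, beside 21.4% of all tested genes.

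**Figure D4:**
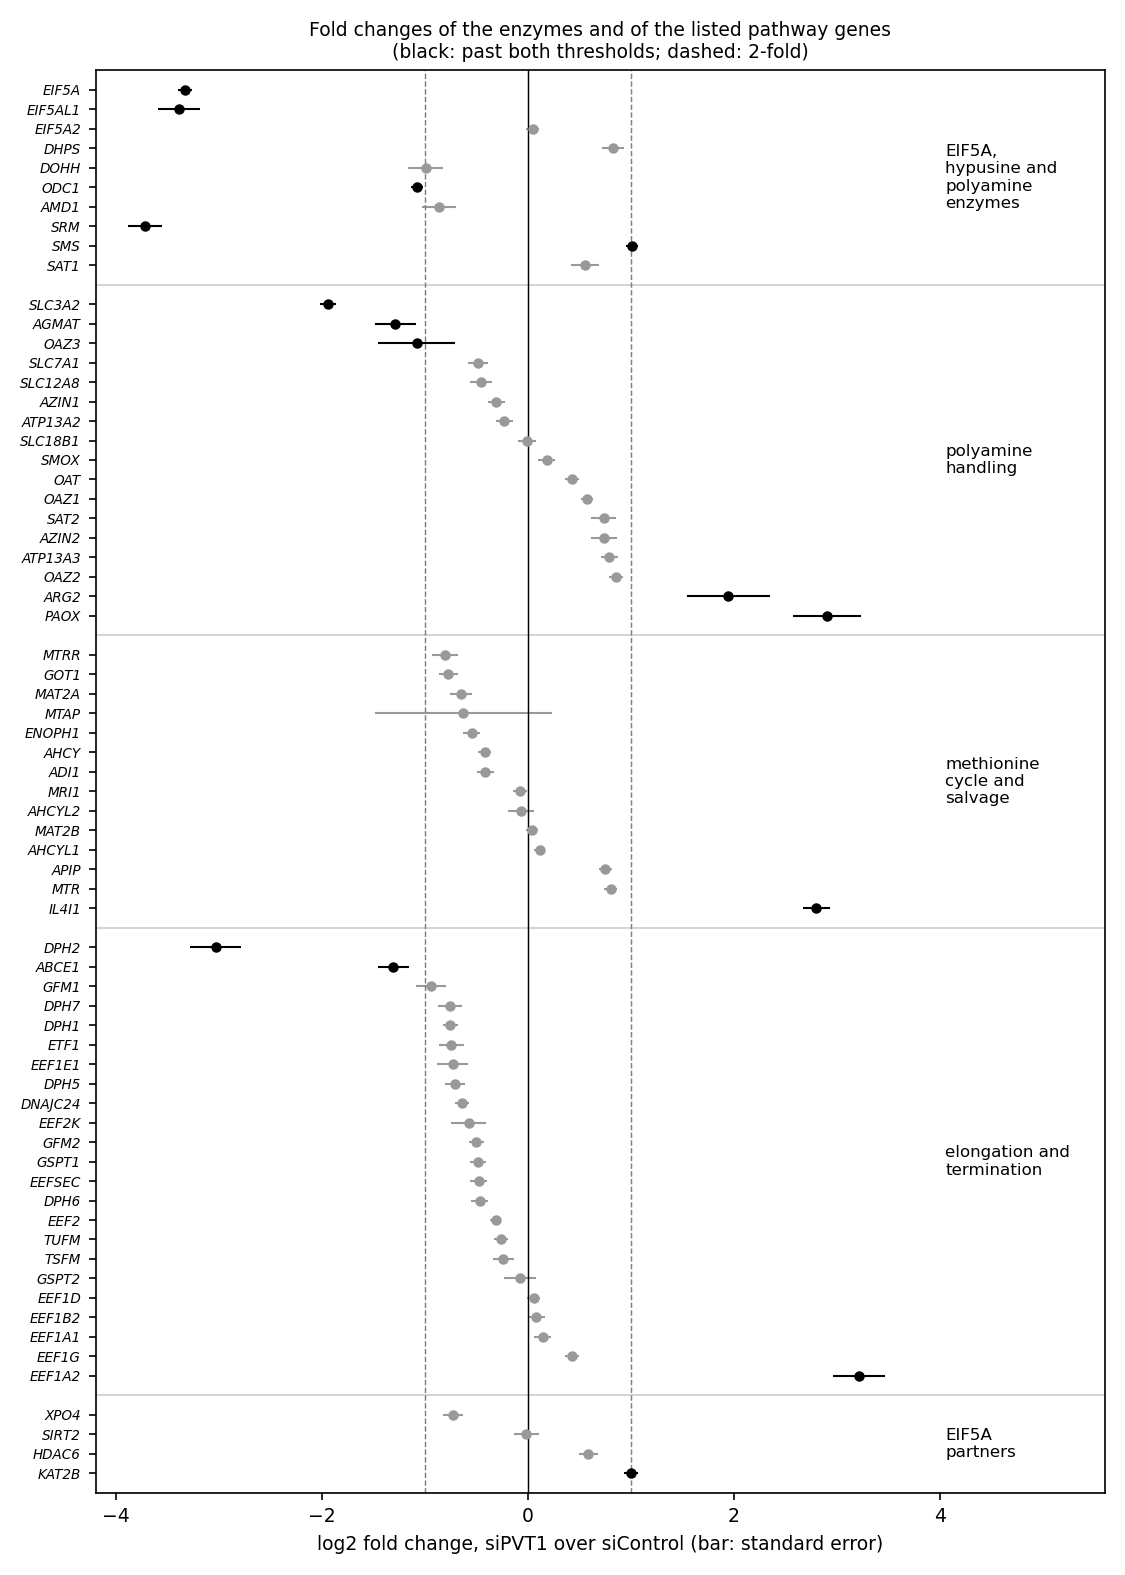
Log2 fold change (siPVT1 over siControl) with standard error for the 10 genes and for the tested genes of the 4 lists, in black where both thresholds were passed and grey otherwise, with dashed lines at 2-fold. Most elongation and termination genes lie between −1 and 0, and the polyamine handling genes lie on both sides of 0, from −1.94 to 2.90.

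The neighbours of EIF5A on chromosome 17 had other fold changes. Of the nearest 5 tested genes on each side, 4 were called as higher, beside 11.6% of all tested genes, and NEURL4 was lower by the adjusted p-value alone (log2 fold change −0.65; edgeR adjusted p = 0.000706). GPS2, which overlaps the end of EIF5A on the opposite strand, had a log2 fold change of −0.19 (standard error 0.129), and since the strand setting of the counting is not given in the sources used here, reads of the overlap cannot be assigned with certainty. KCTD11, ACAP1 and CLDN7 were at 1.81, 2.60 and 2.23. SLC2A4 had 0 to 1 count per library in siControl and 39 to 44 in siPVT1, at least 15.1-fold higher against a floor of 3 counts per library. Y_RNA is a symbol shared by 756 annotated loci, so its value does not belong to this locus.

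**Figure D5:**
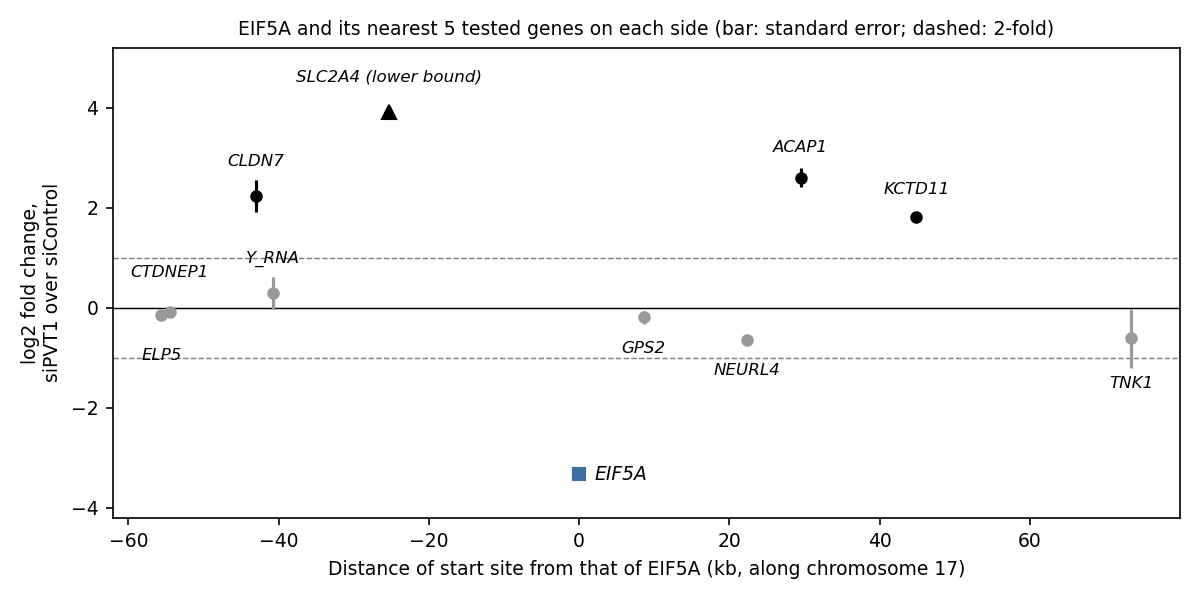
Log2 fold change (siPVT1 over siControl) with standard error against the distance of each start site from that of EIF5A in kb, for EIF5A (blue square) and its nearest 5 tested genes on each side (black, past both thresholds; grey, not; triangle, lower bound for SLC2A4). EIF5A is at −3.33 while the 10 neighbours lie at −0.65 or above.

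The genes whose profile over the 6 libraries was most like that of EIF5A were found by the Euclidean distance of log2(CPM + 0.5), each gene centred on its own mean. They were ARL14 (distance 0.228), SLC7A11 (0.305), NMRAL2P (0.321), RPL41 (0.346) and TEX14 (0.384), with log2 fold changes of −3.57, −3.31, −3.22, −3.57 and −4.85. SLC7A11, the cystine and glutamate exchanger that pairs with SLC3A2, stood at 1151 ± 19.8 CPM in siControl and 116 ± 20.5 CPM in siPVT1 (SD, n = 3 each). TEX14 had 3 to 15 counts in siPVT1, a level at which the added 0.5 lowers differences. Of the other 9 genes of the set, SRM was at a distance of 0.533, EIF5AL1 at 0.821 and ODC1 at 2.75. EIF5AL1 was below 1 CPM in siPVT1, where the added 0.5 also lowers differences, so no order of SRM and EIF5AL1 is given. The distances describe likeness over 6 libraries.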

How the data were processed

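The authors sequenced 75-base single-end reads of mRNA libraries, aligned them with STAR to the GENCODE v35 transcriptome (GRCh38.p13) and counted them with Salmon. The submitters' processing notes list STAR 2.7.3a and Salmon 0.14.1. The authors deposited whole-number counts per gene symbol, not normalized, and all 6 columns were matched to samples by their description label. The strand setting is not given in the sources used here.

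From these counts, edgeR 4.0.16 (R 4.3.3) was run on all 19008 kept genes, with TMM scaling, the quasi-likelihood F test, the siRNA as the only term and Benjamini-Hochberg adjustment over all of them. SEs were obtained from each log2 fold change and the square root of its F statistic. The tests were first tried on simulated data. DESeq2 1.42.0, other scalings and filters, a replicate block and each library left out were the alternatives. Replicates differed by more than sampling noise (chi-square per degree of freedom from 1.72 to 46.3). Coordinates, lengths and transcripts are from GENCODE v44 (GRCh38), a later release on the same genome. The members and lists were chosen with earlier results of these data known. Named list genes are those past both thresholds, at most 6 per list by p-value, and the most abundant. The siRNA sequences were not analysed here. One marker gene is not reported here.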

Additional observations from a re-analysis of the deposited data

How the results depend on the processing

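The log2 fold change of EIF5A, a description since the gene was chosen with it known, was between −3.47 (scaling by the total count) and −3.29 over 12 alternatives, and −3.33 when the counts of EIF5AL1 and the pseudogenes were added to it. Leaving out 1 library gave −3.37 to −3.29 for EIF5A, −0.81 to −0.63 for PVT1, 4 to 7 called genes of the 10 (5 with all libraries), 4 to 5 for polyamine handling (5), 1 to 1 for the methionine list (1), 3 to 4 for elongation and termination (3) and 0 to 1 for the EIF5A partners (1). KAT2B, the called partner, lay on the 2-fold line, and the count of partners was 0 with scaling by the total count (KAT2B at 0.87) and 0 with edgeR's filterByExpr. SMS fell short of 2-fold with scaling by the total count (0.87) and in the fits without siControl replicate 2 (0.96) or siPVT1 replicate 1 (0.99). KAT2B also missed 2-fold without siControl replicate 1 (0.99), siControl replicate 3 (0.97) or siPVT1 replicate 2 (0.99). OAZ3 lost its call without siControl replicate 1 or 2 or siPVT1 replicate 1 or 2 (edgeR adjusted p from 0.0685 to 0.115) and with the replicate block (0.0753). DOHH passed 2-fold without siControl replicate 2 (−1.16) or siPVT1 replicate 3 (−1.07), and AMD1 without siPVT1 replicate 3 (−1.09). The fits that left out 1 library compared 2 libraries with 3. In these fits 3515 to 4233 of the 18302 to 18556 tested genes were called. EIF5A2 changed sign with scaling by the total count, to −0.09. Over the 25 genes followed, the 10 chosen genes among them, 282 of 301 refitted fold changes kept their direction and side of the thresholds. All genes called numbered 4076 and, with scaling by the total count, 43.8% of the called genes were higher in place of 54%.

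The replicate numbers gave no sign of pairing. Correlations of deviations from the group means between same-numbered samples were −0.05, 0.071 and 0.012, and not every sample correlated best with its own number. With 3 libraries per group this cannot show that the samples were unpaired. With the replicate block EIF5A was at −3.33, PVT1 at −0.73, and 5 of the 10 genes were called, beside 3919 of the 19008 tested genes. Precision is limited by 3 libraries per group and, for EIF5AL1, by counts as low as 15.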

Other observations

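The elongation and termination list held 6 genes of diphthamide synthesis, a modification made on EEF2: DPH1, DPH2, DPH5, DPH6, DPH7 and DNAJC24. Genes of that synthesis outside the list were not counted. Each of the 6 had an adjusted p-value under 0.05 and was lower in siPVT1 in edgeR's quasi-likelihood test. So were 16 of the 23 genes of that list, these 6 included, and 29.2% of all tested genes. DPH2, at −3.03, was the only one of the 6 past 2-fold, and the other 5 lay between −0.76 and −0.47. EEF2 itself was at −0.31 (adjusted p = 0.00144 from the same test). This grouping was made after the values were seen.

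MTAP, the enzyme that recovers methylthioadenosine, the by-product of SRM and SMS, was nearly absent in all 6 libraries, with 27, 17 and 41 counts in the siControl libraries, and counts of 14, 35 and 0 in siPVT1 libraries 1, 2 and 3. The next salvage genes were present. APIP was at 26.4 ± 0.985 CPM in siControl and 44.4 ± 1.34 CPM in siPVT1 (SD, n = 3 each; log2 fold change 0.75). The others were not higher, with log2 fold changes of −0.08 for MRI1, −0.55 for ENOPH1, −0.42 for ADI1 and −0.77 for GOT1. MTAP was singled out after its values were seen.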
